A study of Mus musculus with 23 samples.

Results

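Wnt ligands are secreted, lipid-modified signalling proteins. The 10 described here, Wnt3, Wnt3a, Wnt4, Wnt5a, Wnt5b, Wnt6, Wnt7b, Wnt10a, Wnt10b and Wnt11, were taken from the count table by gene symbol and make up 10 of its 54347 genes. 8 of the 10 passed the filter on low counts over the 4 groups, as did 17190 genes in all; Wnt3 and Wnt10b did not, and they are given as levels without a test.

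The study profiled RNA from the labial cervical loop, the epithelial bulb at the growing end of the mouse lower incisor, at postnatal day 2. Every mouse carried Sox2-GFP, a green fluorescent reporter read from the gene's own promoter. Enzyme-dissociated cells were sorted by flow cytometry into a Sox2-positive fraction, called dental epithelial stem cells in the sample descriptions, and a Sox2-negative fraction, and Smart-seq2 libraries were made with Tn5. The sort was repeated as batch A and batch B, on different days and with different mice. Batch A held 6 Sox2-negative and 6 Sox2-positive libraries, and batch B held 4 and 7. The Sox2-negative fraction is everything in the dissected region that lacked the reporter, not 1 cell type. The descriptions do not tell whether libraries within a batch were made from separate mice, so n counts libraries, and p-values measure the spread between libraries, which may be technical. No other allele or treatment is named for any group.

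In the developing tooth, Wnt proteins pass between the epithelium and the mesenchyme next to it. The cell that makes a Wnt adds a fatty acid to it with Porcupine and exports it with Wntless; the receiving cell binds it with Frizzled receptors. Binding together with Lrp5 or Lrp6 stabilises beta-catenin, which works with TCF/LEF factors to switch on genes such as Axin2, whereas Wnt5a and Wnt11 are best known for signalling that does not use beta-catenin.

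The promoter sequences of 3 ligands are shown because these ligands stand for the 3 patterns in the data: Wnt4 was higher in Sox2-positive cells in both batches, Wnt11 was lower in both, and Wnt6 differed between batches. RefSeq (GRCm38.p6, coordinates as in mm10) gave a promoter for 7 of the 10 ligands; Wnt5a, Wnt7b and Wnt10a had none in the table. Each run covers 250 bases before and 50 bases from the start site, 5′ to 3′ on the gene's strand. For Wnt4 this RefSeq start lies 146 bases inside the gene as GENCODE places it, so part of its run before the start is annotated as transcribed. Capitals mark the GC box GGGCGG, the TCF/LEF core CTTTGA and the TATA box TATAAA on either strand; adjoining GC boxes may share bases.
Wnt4, chr4:137277385-137277684, plus strand: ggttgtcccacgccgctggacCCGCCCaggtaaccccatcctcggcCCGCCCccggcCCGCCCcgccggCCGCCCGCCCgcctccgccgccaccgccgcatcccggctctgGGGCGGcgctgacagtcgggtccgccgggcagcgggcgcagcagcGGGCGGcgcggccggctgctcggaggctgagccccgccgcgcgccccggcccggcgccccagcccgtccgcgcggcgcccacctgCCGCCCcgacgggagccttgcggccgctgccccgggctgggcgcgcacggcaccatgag
Wnt6, chr1:74771642-74771941, plus strand: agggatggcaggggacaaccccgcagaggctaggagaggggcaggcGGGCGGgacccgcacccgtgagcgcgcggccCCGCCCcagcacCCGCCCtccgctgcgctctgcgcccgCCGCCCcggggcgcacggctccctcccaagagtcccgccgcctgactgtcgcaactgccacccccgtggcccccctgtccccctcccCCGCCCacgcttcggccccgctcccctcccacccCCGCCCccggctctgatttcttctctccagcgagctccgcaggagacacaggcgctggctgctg
Wnt11, chr7:98834862-98835161, plus strand: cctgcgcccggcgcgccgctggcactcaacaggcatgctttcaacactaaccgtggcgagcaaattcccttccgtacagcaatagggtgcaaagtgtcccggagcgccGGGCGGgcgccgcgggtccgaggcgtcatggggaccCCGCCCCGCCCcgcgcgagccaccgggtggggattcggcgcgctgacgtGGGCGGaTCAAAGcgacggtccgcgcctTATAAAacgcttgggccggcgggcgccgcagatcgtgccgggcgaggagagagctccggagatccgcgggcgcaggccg
All 3 were rich in G and C, at 84.3% for Wnt4, 76.7% for Wnt6 and 71.3% for Wnt11, against a median of 52.7% over 32851 promoters of the same length. They held 51, 31 and 45 CG dinucleotides, against a median of 7. Wnt4 held 8 GC boxes, Wnt6 held 6 and Wnt11 held 4; 35.7% of all promoters held at least 1. Of these 3, Wnt11 alone carried a CTTTGA, 50 bases before its start, and a TATAAA, 29 bases before it, which 16% and 13.6% of all promoters held. RefSeq gave Wnt11 another start, chr7:98838595-98838894, which is not shown. That run was 59.3% G and C and held 23 CG dinucleotides and 1 GC box, with no CTTTGA and no TATAAA. Such matches describe letters only and were not measured as bound sites.

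The libraries held about 2305780 to 9541440 estimated counts each, so 3 counts, taken as the lowest level that can be told from 0, were worth 0.355 to 1.29 CPM (a count divided by the TMM-adjusted size of its library and brought to a fixed total). This covers counting error only. Sox2 averaged 7.25 and 16.3 CPM in the Sox2-positive libraries of batches A and B and 0.0434 and 0.296 CPM in the Sox2-negative ones. The summed level of 10 epithelial markers was 4380 to 6590 CPM in Sox2-positive and 169 to 499 CPM in Sox2-negative libraries. That of 10 dental mesenchyme and odontoblast markers was 10900 to 14000 CPM in Sox2-negative libraries, 1350 to 1920 CPM in the batch A Sox2-positive set, where Dmp1 and Twist1 were at 0, and 688 to 805 CPM in those of batch B, where Twist1 was at 0. The Sox2-negative libraries also held endothelial markers (6 genes, 226 to 1270 CPM summed) and leukocyte markers (6 genes, 370 to 2280 CPM), which summed to at most 35.3 and 14.4 CPM in Sox2-positive libraries. Glial and neural crest markers (6 genes) were higher in the Sox2-positive fraction of batch A, at 1010 to 1210 CPM against 49.5 to 105 CPM. In batch B they summed to 56.5 to 88.8 CPM in Sox2-positive and 55.4 to 100 CPM in Sox2-negative libraries. The Sox2-positive fraction of batch A was therefore not purely epithelial. That of batch B also held other markers, namely the mesenchyme and odontoblast markers given above and pericyte and smooth muscle markers (5 genes, 261 to 307 CPM). In such bulk samples, fewer cells of a type and less RNA per cell cannot be told apart. Within batch B, libraries numbered 1 and 2 resembled each other more than the rest of their group in both populations, with a rank correlation of 0.948 between them against at most 0.915 with any other Sox2-negative library, and 0.982 against at most 0.962 among Sox2-positive ones. Calls of the ligands that change without these libraries are given with that value.

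The first question was which ligands distinguish the Sox2-positive fraction from the remaining cells. Over both batches, Wnt4 was higher in Sox2-positive cells and Wnt5a, Wnt10a and Wnt11 were lower, so 4 of the 8 tested ligands were called. A call means a Benjamini-Hochberg adjusted p under 0.05 over all genes tested, in the quasi-likelihood test of edgeR with batch as a term. Among all 17190 genes, 57.5% were called, 24.9% higher and 32.5% lower, so a count of 4 of 8 is near the background. The ligands' median log2 fold change was 0.05, beside -0.12 for all genes tested. In batch A alone 3 of 8 were called, 1 higher and 2 lower, against 43.4% of genes, 19.3% higher and 24.2% lower. In batch B 5 of 8 were called, 1 higher and 4 lower, against 54.7% of genes, 27.1% higher and 27.6% lower. The CPM ranges of the 2 populations did not overlap for 3 of the 8 in batch A, where 28.1% of tested genes did not overlap, and for 5 of the 8 in batch B, where 38.1% did not. These comparisons reuse the same libraries, so the per-batch values and the joint value are not separate evidence.

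Wnt4 (ENSMUSG00000036856.4, mm10 chr4:137277489-137299726, plus strand), a ligand needed for kidney tubule and female reproductive tract formation, was the only ligand called higher in Sox2-positive cells in both batches. In batch A the lowest, median and highest values were 24.6, 33.7 and 52.6 CPM in Sox2-positive libraries and 3.48, 11.4 and 13.5 CPM in Sox2-negative libraries. In batch B the Sox2-positive libraries spanned 27.4 to 59.1 CPM around a median of 42.2 CPM, and the 4 Sox2-negative libraries read 16.8, 14.9, 24.2 and 11.3 CPM. The 2 populations did not overlap in either batch, and the lowest batch B Sox2-positive library stood close above the highest Sox2-negative one. The log2 fold change over both batches was 1.62 (SE 0.24, edgeR with Benjamini-Hochberg, adjusted p 1.91e-06), a 3.07-fold difference, with 1.89 (SE 0.39) in batch A and 1.40 (SE 0.27) in batch B. The difference between those 2 values was not called (log2 -0.54, 95% interval -1.43 to 0.34, edgeR adjusted p 0.564). Batch B Sox2-positive libraries 1 and 2 were the lowest of their group, at 27.4 to 30.4 CPM against 36.8 to 59.1 CPM in the other 5.

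Wnt5a (ENSMUSG00000021994.15, chr14:28504750-28527448, plus strand), which directs limb and facial outgrowth largely without beta-catenin, showed the widest separation. Sox2-negative libraries of batch A had a lowest, median and highest value of 22.9, 74.3 and 79.0 CPM, and those of batch B read 132, 107, 88.4 and 125 CPM. Sox2-positive libraries had 0, 4.49 and 9.66 CPM in the first batch and 5.71, 7.52 and 13.9 CPM in the second. Every Sox2-negative library was thus above every Sox2-positive one, across batches as well. Wnt5a fell by 3.83 on the log2 scale in Sox2-positive cells (SE 0.38, edgeR with Benjamini-Hochberg, adjusted p 2.16e-09), or 14.2-fold, and the values within batches A and B were -3.84 and -3.73. The batches' difference was 0.04, with a 95% interval of -1.27 to 1.35 (edgeR adjusted p 0.996). Its exons overlap 358 bases of the antisense gene Gm2670, which was at most 0.710 CPM in any library.

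Wnt11 (ENSMUSG00000015957.12, chr7:98835112-98855195, plus strand), the other ligand best known for cell movement and polarity, shared that direction at a lower level. In batch A its lowest, median and highest values were 4.69, 6.32 and 13.4 CPM in Sox2-negative and 0, 0.843 and 4.73 CPM in Sox2-positive libraries, 2 of which had no count. In batch B the Sox2-negative libraries read 9.0, 5.98, 11.4 and 12.2 CPM and the Sox2-positive ones spanned 0.724 to 3.21 CPM around a median of 2.59 CPM. The populations overlapped in batch A, where 1 Sox2-positive library exceeded the lowest Sox2-negative value, and not in batch B. Wnt11 fell by 2.32 (log2, SE 0.52, edgeR with Benjamini-Hochberg, adjusted p 0.000445) over both batches and by 1.90 (SE 0.44, adjusted p 0.00159) in batch B. In batch A the decrease was 2.61 (SE 0.90, edgeR adjusted p 0.0271), a call lost without the stricter low-count filter (adjusted p 0.0526) and when batch A Sox2-negative library 5 (0.0502) or 6 (0.0521) or Sox2-positive library 1 (0.0602) or 5 (0.0593) was left out. The processed pseudogene Gm8398 overlaps 364 exonic bases on the other strand and was at most 1.06 CPM.

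Wnt5b (ENSMUSG00000030170.14, chr6:119432531-119544347, minus strand), the near relative of Wnt5a known from cartilage growth, was not called in any comparison. Its means were 8.59 ± 6.91 CPM (SD, n = 6) in Sox2-negative and 12.6 ± 4.14 CPM (n = 6) in Sox2-positive libraries of batch A, and 16.3 ± 9.01 CPM (n = 4) and 14.3 ± 4.26 CPM (n = 7) in batch B. The ranges overlapped in both batches. Over both batches the log2 difference was 0.19, with a 95% interval of -0.44 to 0.83 (edgeR adjusted p 0.626), which does not show that the populations are alike. A call between batches among Sox2-negative libraries appeared only when batch A Sox2-negative library 3 was left out (log2 1.42, adjusted p 0.0438). The 2 related genes gave different outcomes under the same test, and the difference between them was not tested.

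Markers of most cell types listed were lower in Sox2-positive cells too. Over both batches this held for 10 of 10 mesenchyme and odontoblast, 6 of 6 endothelial, 6 of 6 leukocyte and 6 of 6 erythroid markers. It also held for 4 of 4 tested ameloblast and 3 of 4 tested pericyte and smooth muscle markers, against 32.5% of all genes. Of 6 glial and neural crest markers 5 were higher and 1 lower, and 10 of 10 epithelial markers were higher, against 24.9% of all genes. Wnt5a, Wnt11 and Wnt10a share the lower direction, and the part of other cell types in their decreases was not tested.

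**Figure D1:**
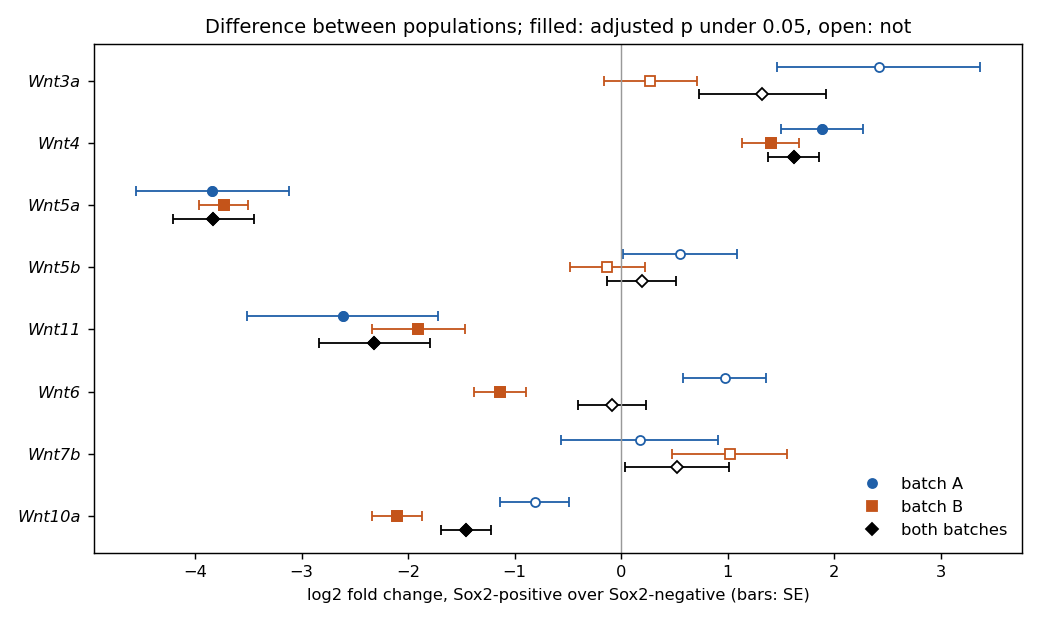
Log2 fold change of Sox2-positive over Sox2-negative libraries (horizontal axis; bars give the SE) for the 8 tested ligands over both batches and in each batch; filled markers have an adjusted p under 0.05. Wnt4 lies to the right and Wnt5a and Wnt11 to the left in all 3 comparisons, whereas the Wnt6 values of the batches, 0.97 and -1.14, lie on opposite sides of 0.

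Wnt6 and Wnt10a are neighbours on chromosome 1, on the plus strand, with 6.19 kb and no annotated gene between them. Wnt10a is known for the missing teeth that its loss causes, and Wnt6 for its expression in surface and dental epithelium. They were the 2 ligands for which the difference between populations itself differed between batches, among 7.04% of all genes with such a call, 2.82% higher and 4.22% lower in batch B. In both, the shift in batch B was toward lower values in Sox2-positive relative to Sox2-negative libraries.

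Wnt6 (ENSMUSG00000033227.7, chr1:74771892-74785322) stood at 3.64, 18.8 and 35.0 CPM (lowest, median and highest) in batch A Sox2-negative libraries and at 27.5, 37.2 and 48.3 CPM in batch A Sox2-positive ones. In batch B the Sox2-negative libraries read 46.1, 44.5, 42.1 and 39.8 CPM, within a narrow range, and the Sox2-positive ones had 11.7, 18.9 and 30.8 CPM. In batch A the Sox2-positive libraries lay mostly above the Sox2-negative ones with some overlap, and in batch B they lay wholly below. The log2 difference was 0.97 in batch A (SE 0.39, 95% interval 0.20 to 1.74, edgeR with Benjamini-Hochberg, adjusted p 0.0552) and -1.14 in batch B (SE 0.25, adjusted p 0.00102). The difference of these differences was -2.17 (SE 0.48, edgeR adjusted p 0.00448). Fitted together with batch as a term, the opposite values left -0.08 (95% interval -0.71 to 0.55, edgeR adjusted p 0.837), which was 0.037 with total-count scaling. The batch A value was called under 4 of 8 other settings, with an adjusted p as low as 0.0211, and without batch A Sox2-negative library 1 (0.0212) or 4 (0.0459).

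Within each population, Wnt6 was also the 1 ligand of 8 called between batches by the edgeR test reported. Limma-voom also called Wnt5a higher in batch B, among Sox2-negative (log2 0.999, adjusted p 0.0414) and Sox2-positive libraries (log2 2.22, adjusted p 0.0366). Leaving out batch A Sox2-negative library 5 gave a call of Wnt10a among Sox2-negative libraries (log2 0.89, edgeR adjusted p 0.0443). Wnt6 was 2.23-fold higher in batch B among Sox2-negative libraries (log2 1.16, SE 0.36, edgeR with Benjamini-Hochberg, adjusted p 0.0359), where 11.2% of genes were called, 5.85% higher and 5.35% lower. It was 2.03-fold lower in batch B among Sox2-positive libraries (log2 -1.02, SE 0.32, edgeR adjusted p 0.0361), where 10.4% of genes were called, 4.85% higher and 5.54% lower. Using only batch B libraries numbered 3 and up, the difference of differences was -1.91 (edgeR adjusted p 0.0826) and the calls within populations were lost (adjusted p 0.209 and 0.226). The call among Sox2-negative libraries was also lost with total-count scaling (adjusted p 0.0747) and without batch A library 2, 3 or 5 or any 1 of the 4 batch B libraries (adjusted p up to 0.0802), and that among Sox2-positive libraries without batch A library 3, 4, 5 or 6 or batch B library 1, 2, 3, 4, 6 or 7 (up to 0.0862). All these fits kept the direction.

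Other marker genes differed between batches in the same libraries. Ameloblast markers (6 genes) summed to 288 to 349 CPM in batch A Sox2-positive libraries and 6.80 to 10.1 CPM in those of batch B, and glial and neural crest markers (6 genes) to 1010 to 1210 CPM and 56.5 to 88.8 CPM. Pericyte and smooth muscle markers (5 genes) went the other way, at 60.1 to 108 CPM in batch A and 261 to 307 CPM in batch B Sox2-positive libraries. Erythroid markers (6 genes) summed to 980 to 1170 CPM in batch A and 53400 to 61800 CPM in batch B among Sox2-negative libraries. In these Sox2-negative libraries the epithelial markers summed to 169 to 273 CPM in batch A and 421 to 499 CPM in batch B, with 5 of 10 called higher in batch B. Endothelial markers went from 864 to 1270 CPM in batch A to 226 to 372 CPM in batch B (6 of 6 called lower), and leukocyte markers from 2000 to 2280 CPM to 370 to 455 CPM (3 of 6 called lower). Their part in the Wnt6 and Wnt10a differences was not tested, and day, mice and cell makeup cannot be told apart between batches.

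Wnt10a (ENSMUSG00000026167.14, chr1:74791516-74804179) had a lowest, median and highest value of 19.7, 30.6 and 58.7 CPM in batch A Sox2-negative and 10.8, 21.5 and 22.4 CPM in batch A Sox2-positive libraries. In batch B the Sox2-negative libraries read 37.5, 46.6, 70.2 and 61.5 CPM, and the Sox2-positive ones spanned 8.40 to 16.1 CPM around a median of 12.1 CPM. The populations overlapped in batch A and were separate in batch B. Over both batches Wnt10a fell by 1.46 on the log2 scale (SE 0.23, edgeR with Benjamini-Hochberg, adjusted p 7.48e-06), or 2.74-fold. The batch B decrease was 2.10 (SE 0.24, edgeR adjusted p 1.83e-06), whereas the batch A value of -0.81 (95% interval -1.44 to -0.18) had an edgeR adjusted p of 0.0526. It was called with DESeq2 (adjusted p 0.0316) and without batch A Sox2-negative library 1 (0.0475), 3 (0.0285) or 4 (0.0414).

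The batches' difference for Wnt10a was -1.35 (SE 0.40, edgeR with Benjamini-Hochberg, adjusted p 0.0370). That call was lost with batch B libraries numbered 3 and up only (log2 -1.51, adjusted p 0.0978), without the stricter low-count filter (adjusted p 0.105), and when any 1 of 13 of the 23 libraries was left out (adjusted p up to 0.0955): batch A Sox2-negative 1, 3 and 4, batch A Sox2-positive 2, 3, 5 and 6, batch B Sox2-negative 2, 3 and 4, and batch B Sox2-positive 1, 2 and 6. Batch B libraries 1 and 2 were the lowest of their group in both populations, at 37.5 to 46.6 CPM against 61.5 to 70.2 CPM in Sox2-negative and 8.40 to 9.58 CPM against 10.7 to 16.1 CPM in Sox2-positive libraries.

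Wnt3a (ENSMUSG00000009900.7, chr11:59248033-59290752, minus strand), a classic activator of beta-catenin, stood at the edge of the threshold. Its lowest, median and highest values were 0, 2.08 and 9.61 CPM in batch A Sox2-negative libraries, 3 of which had no count, and 10.2, 20.8 and 26.9 CPM in batch A Sox2-positive libraries. These ranges did not overlap. In batch B the Sox2-negative libraries read 6.27, 9.56, 5.85 and 14.1 CPM and the Sox2-positive ones spanned 4.74 to 17.5 CPM around 8.15 CPM, with wide overlap. The log2 difference was 2.42 in batch A (95% interval 0.55 to 4.28, edgeR with Benjamini-Hochberg, adjusted p 0.0501) and 0.27 in batch B (-0.58 to 1.13, adjusted p 0.618). Over both batches it was 1.33 (0.16 to 2.49, edgeR adjusted p 0.0586). All 8 other settings run on batch A called it, with adjusted p from 0.00391 to 0.0498, and so did 6 of the 9 run over both batches, among them the fit with batch B libraries numbered 3 and up only (log2 1.69, adjusted p 0.0451). The batch A value was 4.22 with limma-voom. The difference between batches was -2.21 (95% interval -4.28 to -0.14, edgeR adjusted p 0.241), and limma-voom alone called it (-3.97, adjusted p 0.0229). Leaving out batch A Sox2-negative library 1 (0.0378) or 5 (0.0295) gave a call in batch A, and leaving out batch A Sox2-negative library 1, batch B Sox2-negative library 2 or 4, or batch B Sox2-positive library 1, 2, 6 or 7 gave one over both batches (adjusted p 0.0260 to 0.04996).

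Wnt7b (ENSMUSG00000022382.15, chr15:85535437-85582473, minus strand), a ligand of the oral ectoderm, was low in every group. Means were 5.14 ± 4.33 CPM (SD, n = 6) in Sox2-negative and 5.77 ± 4.74 CPM (n = 6) in Sox2-positive libraries of batch A, and 4.21 ± 2.73 CPM (n = 4) and 8.21 ± 4.47 CPM (n = 7) in batch B. The ranges overlapped in both batches, and the log2 difference over both was 0.53 with a 95% interval of -0.43 to 1.48 (edgeR with Benjamini-Hochberg, adjusted p 0.365). In batch B it was 1.02 (-0.04 to 2.08, edgeR adjusted p 0.122), and it was called only without batch B Sox2-negative library 2 (log2 1.49, adjusted p 0.0477). The antisense gene AU022754 shares 324 exonic bases with Wnt7b and reached 1.67 CPM. The sources used here do not say whether counting used strand. Reads from the exonic bases that Wnt5a, Wnt7b and Wnt11 share with an overlapping gene therefore cannot be told from reads of that gene.

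Wnt10b (ENSMUSG00000022996.15, chr15:98770712-98778150, minus strand), known from mammary gland and fat cell formation, was near the limit of detection. It reached 6.82 CPM in 1 batch A Sox2-negative library and was at most 2.70 CPM in every other library; 2 libraries of that group, 3 of batch A Sox2-positive, 1 of batch B Sox2-negative and 2 of batch B Sox2-positive had no count. Wnt3 (ENSMUSG00000000125.5, chr11:103774150-103817957, plus strand), a ligand of early body axis formation, was at 0 in every batch A Sox2-negative and every batch B Sox2-positive libraries. A single batch A Sox2-positive library had 0.947 CPM and a single batch B Sox2-negative one 0.650 CPM. Neither gene gave a difference that this depth could show.

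Levels of different genes were set side by side per kb of transcript, using the mean length of the protein-coding transcripts. Wnt10a led among Sox2-negative libraries in both batches, at 21.8 ± 9.18 CPM per kb in batch A (SD, n = 6) and 34.8 ± 9.44 in batch B (n = 4), which was 38.6% and 35.1% of the summed level of the 10 ligands. Wnt5a followed at 11.6 ± 4.47 and 21.2 ± 3.65 CPM per kb, and Wnt6 at 9.33 ± 5.00 and 20.8 ± 1.33. In Sox2-positive libraries Wnt6 (18.3 ± 3.80, 32.8% of the sum) led in batch A, before Wnt10a (12.4 ± 2.90) and Wnt4 (8.20 ± 2.36), and Wnt4 (10.2 ± 2.83, 23.9% of the sum) led in batch B, before Wnt6 (9.09 ± 3.12) and Wnt10a (7.78 ± 1.75). The lead genes of the populations were therefore partly the same: Wnt6 and Wnt10a were among the top 3 in all 4 groups. Wnt5a had rank 2 in both Sox2-negative and rank 7 in both Sox2-positive groups.

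The order below these was also similar across batches. In Sox2-negative libraries it ran Wnt11, Wnt5b, Wnt4, Wnt7b, Wnt3a, Wnt10b, Wnt3 in batch A and Wnt5b, Wnt11, Wnt4, Wnt3a, Wnt7b, Wnt10b, Wnt3 in batch B. In Sox2-positive libraries it ran Wnt3a, Wnt5b, Wnt7b, Wnt5a, Wnt11, Wnt10b, Wnt3 in batch A and Wnt5b, Wnt3a, Wnt7b, Wnt5a, Wnt11, Wnt10b, Wnt3 in batch B. Neighbours in each order overlapped in range, except Wnt6 and Wnt5b in batch B Sox2-negative libraries. With the longest protein-coding transcript instead, Wnt6 passed Wnt5a in Sox2-negative groups, Wnt4 passed Wnt10a in batch A Sox2-positive libraries and Wnt5b passed it in batch B, so that Wnt10a had rank 4 there; among Sox2-negative libraries Wnt11 moved to rank 5 in batch A and rank 7 in batch B. The summed level of the 10 ligands was 56.9 ± 12.4 and 55.7 ± 7.60 CPM per kb in Sox2-negative and Sox2-positive libraries of batch A, and 97.9 ± 10.96 and 42.9 ± 11.1 in batch B. The sum thus overlapped between populations in batch A (33.1 to 67.3 against 46.2 to 67.7 CPM per kb) and was separate in batch B (86.6 to 110.6 against 28.1 to 58.1).

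**Figure D2:**
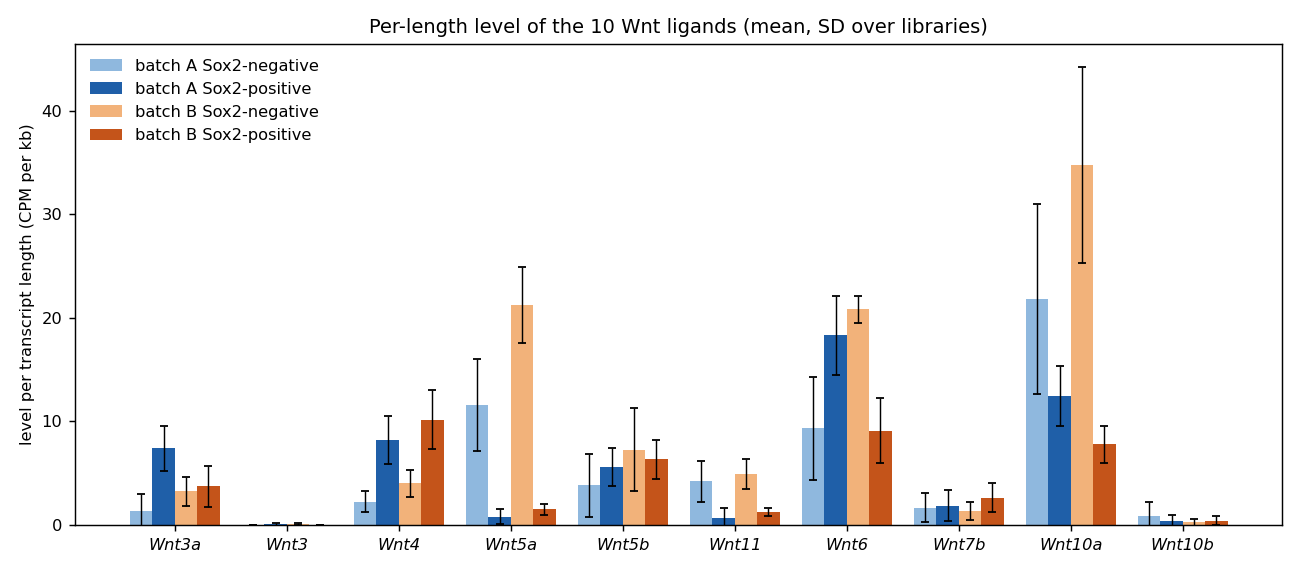
Per-length level of the 10 ligands (CPM per kb of mean protein-coding transcript, linear axis from 0) in the 4 groups; bars are means and whiskers the SD over libraries. Wnt10a is the highest bar in both Sox2-negative groups, at 21.8 and 34.8 CPM per kb, and Wnt5a is low in both Sox2-positive groups, at 0.801 and 1.52.

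For the 6 ligands that averaged at least 10 CPM, the genes whose log2 CPM followed them most closely over the 23 libraries were looked up among 11081 genes. Wnt4 was followed by Tmem38a (Pearson r 0.946) and Tgfb2 (0.934), a growth factor of the TGF-beta family, and Wnt3a by Anapc5 (0.919), a subunit of the anaphase-promoting complex, and Med22 (0.878), a Mediator subunit. After the group means were removed these stayed at 0.824, 0.802, 0.898 and 0.719. Wnt5a was followed by Iqsec1 (0.920) and Elf4 (0.919), and Wnt10a by Clec11a (0.920), a secreted bone growth factor, and Nbl1 (0.903), a BMP antagonist. Their within-group values were lower, at 0.538, 0.562, 0.513 and 0.453, so more of that likeness lay between groups. Wnt6 was followed by Irf2bp1 (0.820; 0.740 within groups) and Ptpa (0.798; 0.676), and Wnt5b by Txndc11 (0.797; 0.777) and Katnal1 (0.789; 0.766). These are the highest of many correlations, the libraries of a group share their sort and batch, and the values are a description.

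Of the 9 other mouse Wnt genes, 2 passed the low-count filter. Wnt9a, the neighbour of Wnt3a across 16.18 kb with no gene between, was lower in Sox2-positive cells by 3.72 (log2, SE 0.63, edgeR with Benjamini-Hochberg, adjusted p 1.51e-05), with Sox2-negative and Sox2-positive means of 7.67 and 0.615 CPM in batch A and 20.3 and 1.30 CPM in the other. It was not tested in batch A, where it did not pass the filter. Wnt7a, the relative of Wnt7b, had a log2 difference of 0.95 (95% interval 0.02 to 1.89, edgeR adjusted p 0.0883). In batch A alone it was higher in Sox2-positive cells by 1.81 (SE 0.71, edgeR adjusted p 0.0497), with means of 3.11 and 10.9 CPM, and in batch B the value was 0.11 (adjusted p 0.868). Both genes are given as the tested members of this short list, outside the naming rule.

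The machinery that lipidates, carries and releases Wnt proteins was measured in full. The Sox2-positive cells were higher for 5 of its 10 genes and lower for 3, where 24.9% of all genes tested were higher and 32.5% lower, and the median log2 difference was 0.31 beside -0.12 for all genes. In batch A 4 were higher and 3 lower, against 19.3% and 24.2% of genes, with a median of -0.02 beside -0.04. In batch B 6 were higher and 3 lower, against 27.1% and 27.6%, with a median of 0.56 beside 0.01. Wls, the Wnt cargo receptor Wntless, rose by 0.80 (log2, SE 0.12, edgeR with Benjamini-Hochberg, adjusted p 1.45e-06) and was picked for its role, as was Porcn, outside the naming rule. Vps26a and Vps35, retromer subunits that return Wntless from endosomes, rose by 1.72 (SE 0.25) and 0.85 (SE 0.13). Notum, the enzyme that strips the lipid from secreted Wnt, fell by 6.82 (SE 0.47, edgeR adjusted p 1.90e-12), from 114 to 1.79 CPM (batch A) and from 164 to 0.810 CPM (batch B). Tmed5, a cargo protein of early export, fell by 0.89 (SE 0.14). Porcn, the acyltransferase Porcupine, had a log2 difference of -0.01 (95% interval -0.49 to 0.47, edgeR adjusted p 0.973). That joint value covers opposite directions in the batches. With scaling factors from all genes, Porcn averaged 26.7 CPM in Sox2-negative and 20.1 CPM in Sox2-positive libraries of batch A. In batch B the means were 18.1 and 28.4 CPM.

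On the receiving side, 5 of 16 receptors and co-receptors were higher and 7 lower, with a median of -0.43, against 24.9% of all genes higher and 32.5% lower. By batch, 6 of 14 were higher and 2 lower in batch A (median 0.26) and 5 of 15 higher and 8 lower in batch B (median -0.71). Fzd3 rose by 1.94 (SE 0.27) and Fzd1 by 1.43 (SE 0.19), and Fzd4 and Ryk, an atypical Wnt receptor, fell by 2.84 (SE 0.64) and 0.80 (SE 0.15), all on the log2 scale. Among R-spondins, which amplify Wnt signals, their Lgr receptors and the ligases they restrain, 4 of 9 were higher (24.9% of all genes) and 5 lower (32.5%). Lgr5, an R-spondin receptor and stem cell marker of several epithelia, rose by 4.68 (SE 0.34, edgeR with Benjamini-Hochberg, adjusted p 5.35e-12), from 2.11 to 41.6 CPM (batch A) and from 3.35 to 112 CPM (batch B). Lgr4 rose by 0.95 (SE 0.11). Rspo2 and Rspo4 were called lower and were at 0 in all 7 batch B Sox2-positive libraries, against batch B Sox2-negative means of 23.04 and 45.8 CPM.

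Secreted antagonists split by gene: 3 of the 10 tested, of 12 listed, were higher (24.9% of all genes) and 7 lower (32.5%). Sfrp5 rose by 4.87 (log2, SE 0.31, edgeR with Benjamini-Hochberg, adjusted p 3.79e-13), reaching Sox2-positive means of 314 (batch A) and 223 CPM (batch B), and Sostdc1, a Wnt and BMP antagonist of the tooth, rose by 1.28 (SE 0.09). Sfrp2 averaged 437 and 1899 CPM in the Sox2-negative libraries of batches A and B and 0.820 and 0.827 CPM in the Sox2-positive ones, and Sfrp4 fell in the same direction by 8.99 (SE 0.43).

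Of the 8 tested feedback and target genes, 7 were lower and none higher over both batches, with a median of -1.62, against 32.5% of all genes lower and 24.9% higher. In batch A 4 were lower and 1 higher (median -1.13), against 24.2% and 19.3% of genes. In batch B 7 were lower and none higher (median -2.82), against 27.6% and 27.1%. The difference between populations itself differed between batches for 5 of the 8, 4 of them lower in batch B, against 7.04% of all genes. Axin2, which beta-catenin switches on in most tissues, averaged 28.7 and 37.5 CPM in the Sox2-negative libraries of batches A and B and 2.07 and 1.06 CPM in the Sox2-positive ones, a decrease of 4.33 on the log2 scale (SE 0.41, edgeR with Benjamini-Hochberg, adjusted p 9.24e-10). Lef1, a nuclear partner of beta-catenin, fell by 4.28 (SE 0.51). Of 9 tested genes for planar polarity and beta-catenin-independent signalling, 3 were higher and 4 lower, against 24.9% and 32.5% of all genes, with 2 and 1 in batch A (median 0.42) and 3 and 3 in batch B (median -0.62). Those named by the rule were Celsr2 (1.84, SE 0.29) and Prickle1 (1.11, SE 0.16) higher and Daam2 (-2.34, SE 0.32) lower. The lower genes of these lists moved with the lower cell type markers given above, whose part was not tested.

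**Figure D3:**
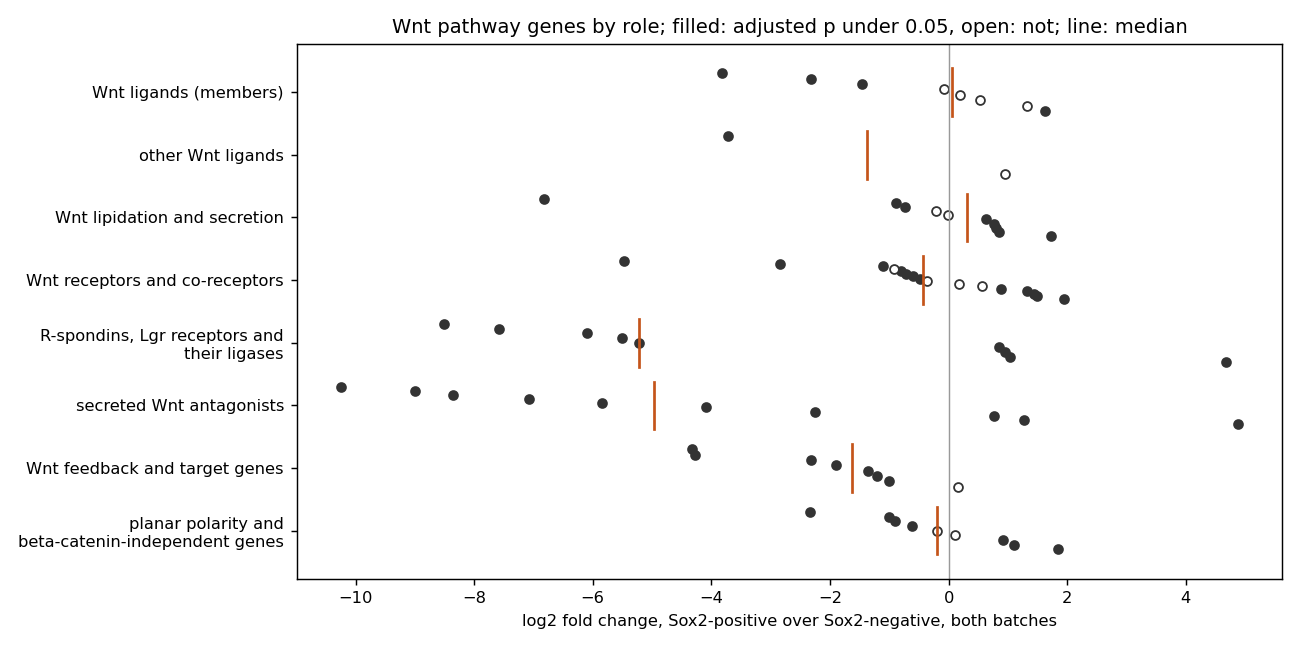
Log2 fold change of Sox2-positive over Sox2-negative libraries in both batches (horizontal axis) for the tested genes of each Wnt list; points are genes, filled where the adjusted p was under 0.05, and the line is the list's median. The ligands spread to both sides of 0, with a median of 0.05, while 7 of the 8 feedback and target genes were called lower.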

How the data were processed

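The authors deposited the values as 1 table of estimated counts (expected counts per gene) for 23 libraries, and the submitters' processing notes name mm10, FastQC, Trimmomatic and Salmon; versions, roles and strand setting are not given in the sources used here. Values were rounded to whole counts. Symbols, positions and transcript lengths came from GENCODE M21 (54094 of 54347 genes, 99.5%, matched).

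Tests used edgeR 4.0.16 in R 4.3.3: TMM scaling, filterByExpr with a minimum count of 10, quasi-likelihood F tests and Benjamini-Hochberg adjustment over all genes tested, called under 0.05. Each edgeR SE was the absolute log2 fold change over the square root of its F statistic. The 95% intervals used that SE with the normal distribution, so they are somewhat narrower than the F test implies. The code was tested on simulated data. CPM used library totals times the TMM factors of the filtered genes. Every pair of libraries in a group differed by more than counting noise (lowest chi-square over its degrees of freedom 5.08).

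Alternatives were DESeq2 1.42.0, limma-voom (limma 3.58.1), other scalings and filters, thinned counts, left-out libraries and a replicate block. The ligands and gene lists were chosen with earlier results of these data known. Named were all 10 ligands, Sox2, up to 2 genes per direction from each other list (called over both batches and in each with the same sign, mean at least 5 CPM), and the 2 most correlated genes per ligand (both at mean 10 CPM or more); Wls, Porcn, Wnt7a and Wnt9a were added for their roles. Summed pericyte and smooth muscle markers (5 genes) were 559 to 918 CPM in batch A and 467 to 510 CPM in batch B Sox2-negative libraries. In Sox2-positive libraries they were 60.1 to 108 CPM in batch A and 261 to 307 CPM in batch B.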

Additional observations from a re-analysis of the deposited data

Results flagged for a closer look

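In 7 of 38 groups examined (a ligand in a group of 4 to 7 libraries), 1 library stood apart from the others of its group by Dixon's criterion. Chance meets it in about 1 group in 20 for normally distributed values, which CPM near 0 are not. A group with 1 library above 0 and the rest at 0, as for Wnt3, meets it by construction. The count of 7 therefore cannot be read as more than chance gives. Wnt4 was 52.6 CPM in batch A Sox2-positive library 6, and the next was 34.9 CPM. Wnt11 was 4.73 CPM in batch A Sox2-positive library 4 (next 1.69 CPM) and, as the lowest of its group, 0.724 CPM in batch B Sox2-positive library 6 (next 2.40 CPM). Wnt10b was 6.82 CPM in batch A Sox2-negative library 3 (next 1.28 CPM) and 2.70 CPM in batch A Sox2-positive library 6 (next 0.803 CPM). Wnt3 was 0.947 CPM in batch A Sox2-positive library 4 and 0.650 CPM in batch B Sox2-negative library 3, with all others of those groups at 0. During the work, the scaling factors behind CPM were changed from those of all genes to those of the filtered genes. With the all-gene factors, Wnt5a in a batch B Sox2-positive library also stood apart, at 14.6 CPM with the next at 9.34 CPM.

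The difference between populations itself differed between batches for 5 of the genes named, by the edgeR interaction test. It was -2.17 (log2, batch B minus batch A) for Wnt6, -1.35 for Wnt10a, -1.10 for Fzd1, -1.58 for Fzd3 and -1.58 for Celsr2. For the last 3 the direction was the same in both batches, with log2 differences of 1.96 and 0.93 for Fzd1, 2.72 and 1.21 for Fzd3, and 2.63 and 1.12 for Celsr2 in batches A and B.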

How the results depend on the processing

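The calls of Wnt4, Wnt5a, Wnt10a and Wnt11 over both batches, and of Wnt4 and Wnt5a in each batch, held under every alternative run. In batch A, 3 ligands were called by the edgeR test reported, 5 with thinned counts, limma-voom or total-count scaling, 6 with DESeq2, and 2 to 6 when 1 library was left out. For the interaction, 2 ligands were called, against 0 with batch B libraries numbered 3 and up, 1 without the filter, 3 with limma-voom (Wnt3a added), and 1 to 2 leaving out 1 library; all genes called went from 1210 to 481 with batch B libraries numbered 3 and up, and to 536 with the replicate block. Between batches in Sox2-negative libraries, 1 ligand was called, against 0 with batch B libraries numbered 3 and up or total-count scaling, 2 with limma-voom and 0 to 1 leaving out 1 library; 1924 genes became 754 with batch B libraries numbered 3 and up. In Sox2-positive libraries the 1 called ligand became 0 and 2 with batch B libraries numbered 3 and up and limma-voom, and 0 to 1 leaving out 1 library; 1785 genes became 1159 and 3313. Total-count scaling moved the median of all genes over both batches from -0.12 to 0.00 and the calls to 4966 higher and 5051 lower.

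Uncalled log2 values changed sign. Wnt6 over both batches (-0.08) became 0.34 with batch B libraries numbered 3 and up, 0.12 with the replicate block, 0.037 with total-count scaling and -0.25 to 0.066 leaving out 1 library. Wnt5b in batch B (-0.13) became 0.15 with limma-voom and -0.37 to 0.31 leaving out 1 library. The Wnt5a interaction (0.04) became -0.14 with thinned counts and -0.20 to 0.51 leaving out 1 library. Leaving out 1 library gave -0.27 to 0.61 for Wnt7b in batch A, and -0.75 to 0.16 for Wnt7b between batches in Sox2-negative libraries, where limma-voom gave 0.18. The causes were not tested.

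Libraries with the same number correlated at -0.0241 to 0.0110 in batch A and 0.000611 to 0.0609 in batch B, so the numbers were not taken as pairs. With the replicate block, 8812 genes were called over both batches instead of 9879, and 1 ligand for the interaction, Wnt10a being lost (adjusted p 0.0784). That block could not be fitted between batches within a population. Depth limits Wnt3 and Wnt10b most.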
